A study of Mus musculus with 12 samples.

Results

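The 8 genes described here encode the core transcription factors of the cardiomyocyte: *Nkx2-5*, *Hand1*, *Hand2*, *Mef2a*, *Mef2c*, *Mef2d*, *Srf* and *Myocd*. They were taken by their symbols, not by a cut-off on a measured value, from the 20368 genes of the deposited expression table. Earlier results of these data were known when they were chosen. All 8 passed the filter on low values in each of the 6 comparisons, so no member is missing from a count below.

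These factors form the network that turns on and maintains the contractile gene programme of the heart. NKX2-5 is a homeodomain protein that marks cardiac progenitors and cardiomyocytes. HAND1 and HAND2 are basic helix-loop-helix proteins known for the growth of the ventricles and the outflow tract. MEF2A, MEF2C and MEF2D are MADS-box proteins that bind A/T-rich elements of muscle genes, and SRF is a MADS-box protein that binds the CArG box. Myocardin, the product of *Myocd*, does not bind DNA by itself but joins SRF and activates muscle genes through it.

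Embryonic hearts of mice labelled as CD1, from lines kept on a CD1-ICR background, were profiled by RNA sequencing at embryonic stages 11.5 (E11.5) and 12.5 (E12.5), with 3 libraries in each of 4 groups. The mutant hearts were Mesp1Cre;Hira-/fl and the Cre control hearts were Mesp1Cre;Hira+/fl. All groups therefore carried the *Mesp1Cre* allele and a floxed *Hira* allele. The mutants also carried a constitutive null allele, and the controls kept a copy of *Hira* that Cre cannot recombine. HIRA is a histone chaperone that places the variant histone H3.3 on chromatin outside of DNA replication. *Mesp1Cre* acts in the early mesoderm from which cardiomyocytes, endothelium, epicardial derivatives and smooth muscle arise, so blood cells and neural crest derivatives in a heart need not be mutant. Neither the labels nor the methods say whether a library holds 1 heart or several, and the p-values measure the spread between these libraries. In whole hearts, fewer cells of a type and less RNA per cell cannot be told apart.

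Total counts ran from 11994148 to 17483982 per library, with mutant replicate 3 at E11.5 the shallowest. The members were well covered, with 283 to 2516 counts per gene and library. The targeted gene, counted over its whole length, stood at 78.1 ± 8.89 CPM (read counts scaled to a common library total, SD, n = 3) in control and 64.7 ± 8.42 in mutant hearts at E11.5, and at 75.1 ± 13.1 and 73.7 ± 5.19 at E12.5. The fold changes of *Hira* did not pass the test (adjusted p = 0.607 and 0.962), and these counts cannot single out reads on the deleted exon. The study reports recombination by PCR, fewer sequencing reads on that exon in mutants and reduced HIRA protein by western blotting of later hearts. All 13 cardiomyocyte markers were expressed in every library, and their summed level lay between 28407 and 37737 CPM. By reads on Y-linked genes, the 3 controls at E11.5 were male, as was mutant replicate 3, while mutant replicates 1 and 2 were female. At E12.5 each genotype had 1 male and 2 female libraries.

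The proximal promoters of 3 members are shown. *Mef2a* and *Mef2d* were the members called between the stages in controls, by calls that rested on few libraries. *Srf* was among the steadiest. Each sequence is the 250 bases before the start site in the RefSeq promoter table (GRCm38.p6), read 5′ to 3′ on the strand of the gene. *Mef2a* lies on the minus strand (chr7:67372859-67373108), *Mef2d* on the plus strand (chr3:88142122-88142371) and *Srf* on the minus strand (chr17:46556163-46556412). Capitals mark matches, on either strand, to the CArG box, the MEF2 box, the E-box CANNTG bound by basic helix-loop-helix proteins, the NKX motif AAGTG, the GATA motif GATAA or the repeat GAGAGAGA.

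Mef2a: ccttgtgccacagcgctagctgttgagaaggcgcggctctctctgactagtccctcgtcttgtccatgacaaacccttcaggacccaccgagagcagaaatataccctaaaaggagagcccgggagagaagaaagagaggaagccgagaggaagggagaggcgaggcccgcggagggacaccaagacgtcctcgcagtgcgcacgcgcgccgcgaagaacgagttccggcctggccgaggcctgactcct

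Mef2d: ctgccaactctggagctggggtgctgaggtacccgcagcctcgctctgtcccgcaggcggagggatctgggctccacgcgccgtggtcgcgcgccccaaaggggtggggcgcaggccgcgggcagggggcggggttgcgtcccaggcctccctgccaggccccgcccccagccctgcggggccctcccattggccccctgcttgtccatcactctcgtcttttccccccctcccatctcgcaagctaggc

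Srf: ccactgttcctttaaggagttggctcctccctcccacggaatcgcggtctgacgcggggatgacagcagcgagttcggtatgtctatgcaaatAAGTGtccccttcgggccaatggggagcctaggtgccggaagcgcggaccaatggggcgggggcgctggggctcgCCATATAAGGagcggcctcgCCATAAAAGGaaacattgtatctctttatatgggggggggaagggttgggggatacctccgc

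The *Srf* promoter held 2 CArG boxes, at bases 82 to 73 and 62 to 53 before the start, so the gene carries the recognition motif of its own product. Of 32851 mouse promoter windows of the same length, 1.47% held a CArG box. *Srf* also held an NKX motif, which overlapped no other match and was found in 40.7% of all windows. Neither *Mef2a* nor *Mef2d* held any of these 6 motifs in this window. The GC box GGGCGG, not capitalised here, was found at 2 places in *Mef2d*, at 1 in *Srf* and at none in *Mef2a* (32.7% of all windows), and TATAAA was found in *Srf* (12.4%). The base composition of these windows differed, with 61.6% G and C in *Mef2a*, 73.2% in *Mef2d* and 59.6% in *Srf*. Promoters were matched for 6 of the 8 members, with 8 windows in all because *Mef2c* has 3 start sites, and *Hand1* and *Myocd* had no entry. *Srf* was the only one of the 6 with a CArG box. No member window held a MEF2 box, against 2.92% of all windows, or GAGAGAGA, against 3.26%. E-boxes were found for *Nkx2-5*, *Hand2* and *Mef2c* (66.2% of all windows) and GATAA for *Hand2* and *Mef2c* (22.6%). The E-box CACTTG of *Hand2* and the E-box CAAGTG of *Mef2c* each overlapped an NKX motif. A match of letters is a description of the window and not evidence of binding.

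All 8 factors were expressed in every heart. For levels between genes, counts were divided by gene length and library total (RPKM). In E11.5 control hearts *Nkx2-5* stood highest, at 54.9 ± 8.65 RPKM (SD, n = 3), followed by *Hand2* at 44.4 ± 4.67, and the ranges of these neighbours overlapped. *Srf* followed at 30.7 ± 2.68, apart from both of its neighbours in the order. *Hand1* (20.04 ± 5.47), *Mef2a* (19.1 ± 9.98), *Mef2c* (17.5 ± 0.517) and *Mef2d* (17.4 ± 4.52) overlapped, and *Myocd* was lowest at 9.49 ± 4.11 with a range that overlapped that of *Mef2d*.

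The order at E12.5 differed in the middle. *Nkx2-5* (61.0 ± 8.80 RPKM) and *Hand2* (48.9 ± 5.40) again led in the controls, followed by *Mef2a* at 40.4 ± 6.91, *Srf* at 32.3 ± 4.57 and *Mef2d* at 27.8 ± 2.17. Each of these overlapped its neighbour. *Mef2c* (18.2 ± 0.972), *Myocd* (15.8 ± 2.61) and *Hand1* (14.0 ± 1.94) closed the order, apart from *Mef2d*. *Myocd* overlapped both of the others, and *Mef2c* and *Hand1* did not overlap. By these lengths *Nkx2-5* and *Hand2* led in the mutants too and *Myocd* had the lowest mean at both stages. *Hand1*, last of the 8 in E12.5 controls, ranked sixth in E12.5 mutants at 17.8 ± 2.64 RPKM.

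The places of *Mef2a*, *Mef2d* and *Srf* rest on the gene length that was used. The deposited values imply 2877 bases for *Mef2a*, 2459 for *Mef2d* and 4093 for *Srf*, while the longest annotated transcripts have 5538, 5401 and 2616 bases. With the annotated lengths, *Srf* in E12.5 controls stood at 50.6 ± 7.15 RPKM and ranked second, *Mef2a* at 21.0 ± 3.59 and *Mef2d* at 12.7 ± 0.989, the lowest of the 8. By the annotated lengths *Srf* stood just above *Hand2* in all 4 groups. The lowest mean was then that of *Mef2d* in E11.5 controls (7.92 ± 2.06 RPKM, with *Myocd* at 9.51 ± 4.12) and E12.5 mutants, and that of *Mef2a* in E11.5 mutants (10.8 ± 5.72, with *Myocd* at 11.3 ± 4.26). The lengths of the other 5 members in the 2 sources were close. Comparisons of a gene between libraries do not depend on this length.

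**Figure D1:**
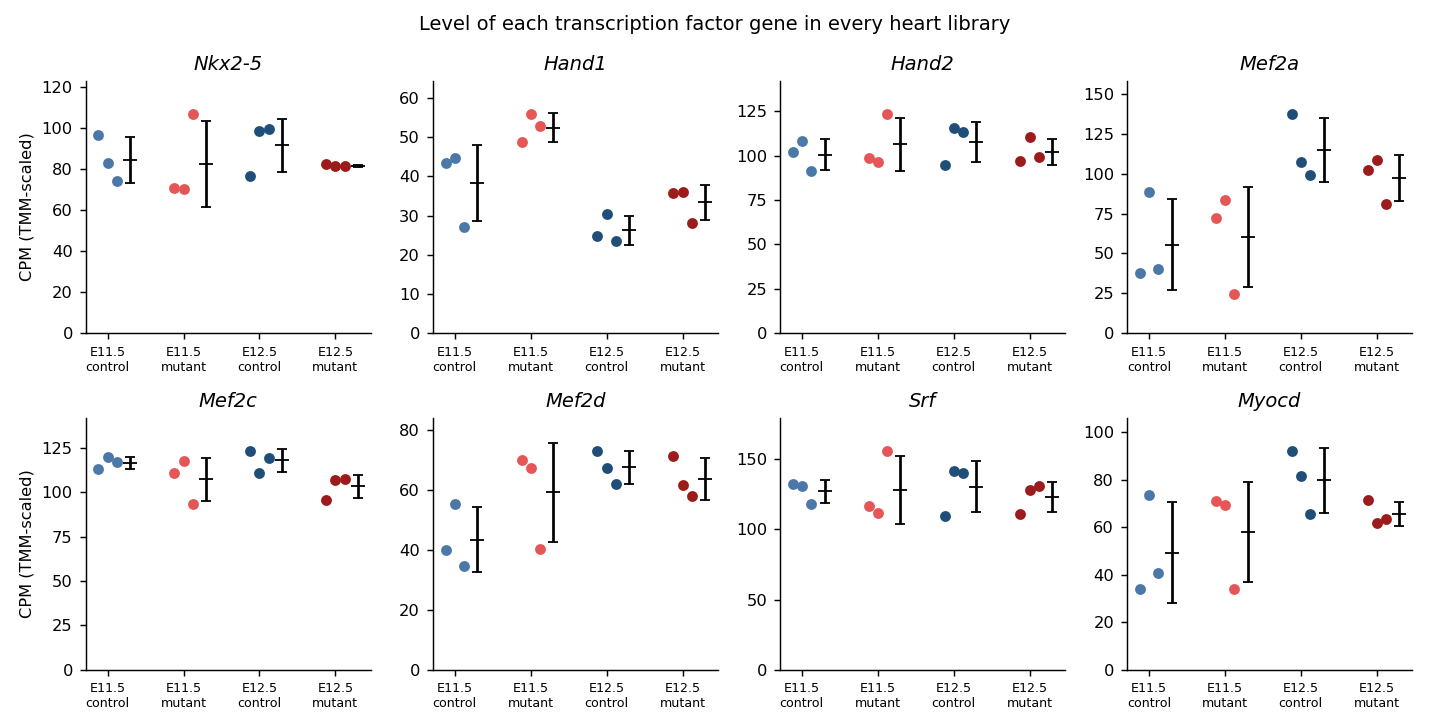
Level of each gene in CPM scaled by TMM (vertical axes, from 0) in the 3 libraries of each group (points), with the group mean and SD beside them. *Mef2a*, *Mef2d* and *Myocd* spread widely at E11.5, where 3 libraries lie low in all 3 genes, while *Mef2c* in E11.5 controls lies between 113 and 120.

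The first question was whether loss of HIRA changed these factors, and no member was called in either stage. A gene was called where the adjusted p was at most 0.05 and the fold at least 1.5. At E11.5, 0 of 8 members were called in mutant against control hearts, where 0.115% of 12197 tested genes were called. At E12.5, 0 of 8 were called, where 2.95% of 12257 genes were. DESeq2 also called 0 members at each stage. With an unadjusted p under 0.05 there was 1 member at E11.5 (10.2% of all genes) and 3 members at E12.5 (21.4%). The median log2 fold change of the members was 0.11 at E11.5 and -0.11 at E12.5, against 0.00 over all genes at both stages.

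*Nkx2-5* (ENSMUSG00000015579, GRCm38 chromosome 17, 26838664 to 26841565, minus strand), the homeodomain factor, did not pass the test at either stage. At E11.5 the controls stood at 96.6, 82.9 and 74.4 CPM and the mutants at 70.8, 70.3 and 107 CPM. At E12.5 the controls stood at 76.8, 98.8 and 99.4 CPM and the mutants at 82.3, 81.4 and 81.5 CPM. The groups overlapped at both stages, and the E12.5 mutants were nearly identical to one another. The log2 fold change was -0.03 (standard error 0.19, adjusted p = 0.985) at E11.5 and -0.15 (standard error 0.10, adjusted p = 0.411) at E12.5. The 95% interval of the fold was 0.728 to 1.32 at E11.5 and 0.775 to 1.05 at E12.5. With embryo sex as a covariate the E11.5 value was 0.36, which rested on mutant replicate 3 as the only male mutant. The E11.5 interval therefore holds only for the fit without sex.

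*Hand1* (ENSMUSG00000037335, chromosome 11, 57828705 to 57832818, minus strand), which encodes the HAND factor of the left ventricle and outflow tract, came closest to a difference between genotypes. The E11.5 controls stood at 43.4, 44.6 and 27.2 CPM and the E11.5 mutants at 48.7, 56.0 and 52.8 CPM. All mutants were above all controls, with control replicate 3 far below its group. *Hand1* was the only member whose groups did not overlap at E11.5, as was the case for 16.4% of all tested genes. The log2 fold change was 0.46 (standard error 0.19, adjusted p = 0.453), and without control replicate 3 it was 0.26 (standard error 0.13). At E12.5 the controls stood at 24.7, 30.3 and 23.5 CPM and the mutants at 35.9, 36.1 and 28.1 CPM. Here mutant replicate 3 lay among the controls, and the log2 fold change was 0.36 (standard error 0.13, adjusted p = 0.129).

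Over both stages together, with stage as a covariate, *Hand1* was higher in mutant hearts by a log2 fold change of 0.41 (standard error 0.12), a fold of 1.33 with a 95% interval of 1.12 to 1.59. The adjusted p of 0.0523 fell just short of the threshold, and the fold was under 1.5. Of the 8 members 0 were called in this comparison, against 3.22% of 12270 genes, and 2 had an unadjusted p under 0.05, against 19.4%. Over 22 alternative settings the value ran from 0.31 to 0.47 and the adjusted p from 0.0168, with DESeq2, to 0.113. The fold stayed under 1.5 in all 22. In the setting without a fold threshold the adjusted p was the 0.0523 of the main fit, so no setting made *Hand1* a call. Of 4 smooth muscle markers (none at 0), the summed level ran from 2357 to 2880 CPM in controls and 2798 to 3374 in mutants at E11.5, and from 1489 to 2014 and 2101 to 2488 at E12.5. *Acta2* gave most of this sum (1756 ± 226 CPM in E11.5 controls). At E11.5 *Acta2* and *Cnn1* had log2 fold changes of 0.31 and 0.26, while *Tagln* was at -0.14 and *Myh11* stood at 2.11 ± 0.931 CPM in controls and 1.11 ± 0.498 in mutants. The part of those cells in the *Hand1* values was not tested.

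*Hand2* (ENSMUSG00000038193, chromosome 8, 57320983 to 57324517, plus strand), the HAND factor of the right ventricle, did not pass the test at either stage. The E11.5 controls stood at 102, 109 and 91.4 CPM and the mutants at 98.9, 96.7 and 124 CPM. At E12.5 the controls stood at 94.5, 115 and 113 CPM and the mutants at 97.0, 111 and 99.3 CPM. The groups overlapped, with log2 fold changes of 0.09 (standard error 0.14, adjusted p = 0.916) and -0.06 (standard error 0.09, adjusted p = 0.743). The intervals of the fold were 0.853 to 1.33 and 0.834 to 1.10. An antisense gene, *Hand2os1*, overlaps *Hand2* on the other strand, and its reads could not be separated because strand is not stated for the counting. The same holds for *Lysmd4* at *Mef2a*, *1700113A16Rik* at *Mef2d* and *Gm26904* at *Srf*.

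The ratio of *Hand2* to *Hand1* within a library does not depend on how the libraries were scaled. Per length, it was 1.99, 2.06 and 2.86 in E11.5 controls and 1.73, 1.47 and 1.99 in E11.5 mutants. At E12.5 it was 3.25, 3.23 and 4.09 in controls and 2.30, 2.60 and 2.996 in mutants. The ratio was lower in mutants at each stage, by a margin in the third decimal place at E11.5, and higher at the later stage in each genotype. This ratio was chosen after the values of *Hand1* were seen and was not tested.

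**Figure D2:**
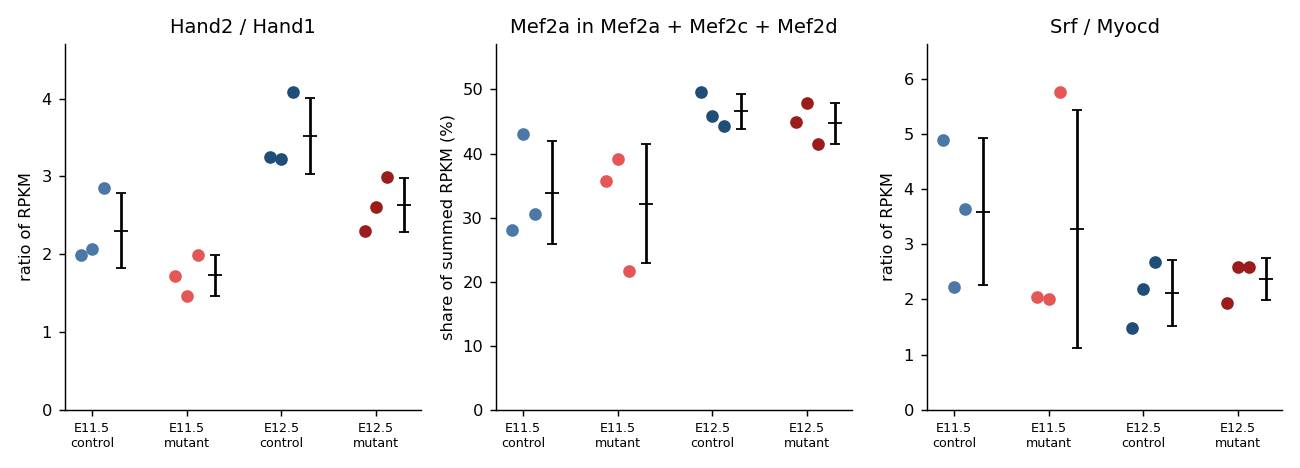
Ratios within each library for the 4 groups (points) with group mean and SD: *Hand2* over *Hand1* and *Srf* over *Myocd* as ratios of RPKM, and *Mef2a* as a percentage of the summed RPKM of the 3 *Mef2* genes, all axes from 0. *Hand2* over *Hand1* was 3.52 ± 0.493 in controls and 2.63 ± 0.351 in mutants at E12.5.

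Among the MEF2 factors, *Mef2c* was the steadiest and *Mef2a* the most variable. *Mef2c* (ENSMUSG00000005583, chromosome 13, 83504034 to 83667079, plus strand), the family member best known for its role in early heart development, stood at 113, 120 and 117 CPM in E11.5 controls and at 111, 117 and 93.5 CPM in E11.5 mutants. At E12.5 it stood at 123, 111 and 119 CPM in controls and at 95.8, 107 and 107 CPM in mutants. All E12.5 mutants lay under all E12.5 controls. *Mef2c* was the only member whose groups did not overlap at that stage, as was the case for 26.4% of all tested genes. The difference was small, with a log2 fold change of -0.18 (standard error 0.08, adjusted p = 0.219) and an interval of the fold from 0.787 to 0.996. At E11.5 it was -0.11 (standard error 0.12, adjusted p = 0.863), and over both stages -0.14 (standard error 0.07, adjusted p = 0.253).

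*Mef2a* (ENSMUSG00000030557, chromosome 7, 67231163 to 67372858, minus strand) stood at 37.5, 88.8 and 40.3 CPM in E11.5 controls and at 72.5, 83.6 and 24.4 CPM in E11.5 mutants. Within each genotype the libraries differed by more than the genotypes did, with low values in control replicates 1 and 3 and in mutant replicate 3. The log2 fold change of 0.13 (standard error 0.45, adjusted p = 0.963) had an interval of the fold from 0.540 to 2.20, so changes of 1.5-fold either way were not detectable at this spread. At E12.5 the controls stood at 138, 108 and 99.4 CPM and the mutants at 102, 109 and 81.2 CPM. The groups overlapped and the log2 fold change was -0.22 (standard error 0.13, adjusted p = 0.367), with an interval of the fold from 0.701 to 1.05.

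*Mef2d* (ENSMUSG00000001419, chromosome 3, 88142372 to 88172086, plus strand) stood at 39.9, 55.4 and 34.6 CPM in E11.5 controls and at 69.8, 67.3 and 40.2 CPM in E11.5 mutants. Mutant replicates 1 and 2 were above every control and mutant replicate 3 was among them, and the log2 fold change was 0.46 (standard error 0.24, adjusted p = 0.574). Without mutant replicate 3 it was 0.67 (standard error 0.18, adjusted p = 0.160). That fit sets male controls against female mutants, so genotype and sex cannot be told apart in it. With embryo sex as a covariate the value was -0.0864, which rested on mutant replicate 3 as the only male mutant. At E12.5 the controls stood at 73.1, 67.4 and 62.0 CPM and the mutants at 71.3, 61.5 and 57.9 CPM. These overlapped, with a log2 fold change of -0.07 (standard error 0.10, adjusted p = 0.718).

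*Srf* and *Myocd* encode the DNA-binding and the activating parts of one complex, and *Myocd* varied more between the libraries. *Srf* (ENSMUSG00000015605, chromosome 17, 46546839 to 46556162, minus strand) stood at 132, 131 and 118 CPM in E11.5 controls and at 117, 112 and 156 CPM in E11.5 mutants. At E12.5 it stood at 110, 142 and 140 CPM in controls and at 111, 128 and 131 CPM in mutants. The groups overlapped at both stages. Its log2 fold changes were 0.02 (standard error 0.15, adjusted p = 0.985) and -0.07 (standard error 0.11, adjusted p = 0.749), with intervals of the fold from 0.796 to 1.29 and from 0.811 to 1.12.

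*Myocd* (ENSMUSG00000020542, chromosome 11, 65176561 to 65269989, minus strand) stood at 33.9, 73.5 and 40.6 CPM in E11.5 controls and at 71.3, 69.3 and 33.9 CPM in E11.5 mutants. The low libraries were those low in *Mef2a*. The log2 fold change was 0.25 (standard error 0.33, adjusted p = 0.904), with an interval of the fold from 0.703 to 2.01. At E12.5 it stood at 92.4, 81.4 and 65.5 CPM in controls and at 71.5, 61.9 and 63.3 CPM in mutants. These overlapped, with a log2 fold change of -0.27 (standard error 0.12, adjusted p = 0.217). The ratio of *Srf* to *Myocd*, per length, ran from 2.02 to 5.77 within the E11.5 mutants and from 1.94 to 2.59 within the E12.5 mutants.

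**Figure D3:**
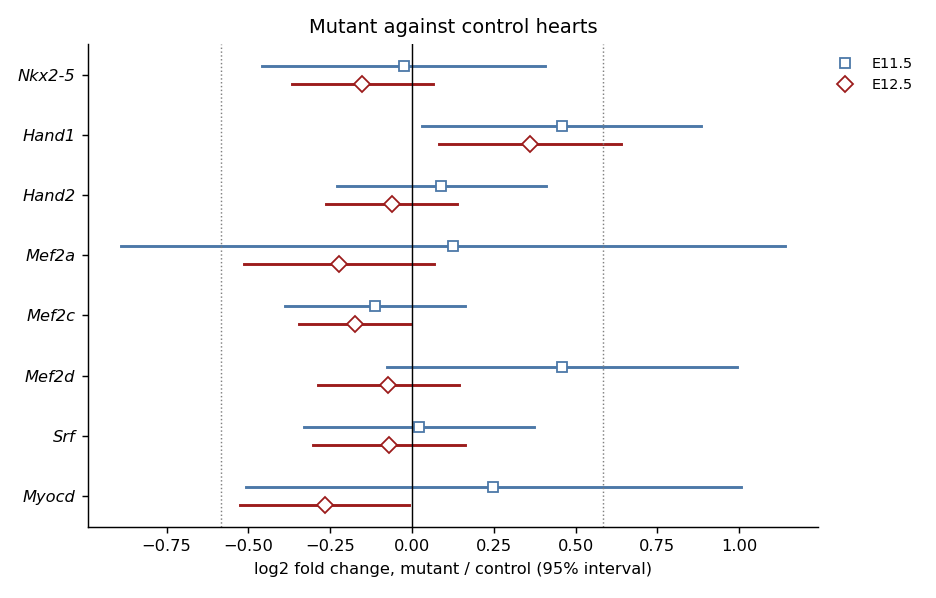
Log2 fold change of mutant over control hearts (horizontal axis) for the 8 genes at E11.5 (squares) and E12.5 (diamonds), with 95% intervals as lines, 0 as a solid line and 1.5-fold either way as dotted lines. Open symbols mark genes that were not called, here all 8 at both stages, and the intervals at E11.5 are widest for *Mef2a*, *Myocd* and *Mef2d*.

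Standard errors of the members ran from 0.12 to 0.45 on the log2 scale at E11.5 and from 0.08 to 0.13 at E12.5. No interval at E12.5 reached 1.5-fold lower, and *Hand1* alone reached 1.5-fold higher, with an upper limit of 1.56. At E11.5 *Hand1*, *Mef2a*, *Mef2d* and *Myocd* had upper limits between 1.85 and 2.20. The effect of genotype on the members was not called different between the stages, with 0 of 8 called and 0 at an unadjusted p under 0.05. Over all 12270 genes the call rate in that test was 0%, and 4.49% had an unadjusted p under 0.05. DESeq2 called 42 genes in that test and 0 members.

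The second question was how the factors differed between the stages. Stage and any difference in how the E11.5 and E12.5 libraries were made cannot be told apart. In control hearts, 2 of 8 members were called between E12.5 and E11.5, both higher at E12.5, where 5.28% of 12252 genes were called and 2.85% were called higher. The 2 were *Mef2a* and *Mef2d*. At an unadjusted p under 0.05 there were 4 members, against 32.8% of all genes. In mutant hearts 0 of 8 were called, against 0.556% of 12238 genes, and 1 had an unadjusted p under 0.05, against 9.27%. DESeq2 called 1 member in each genotype, *Mef2d* in controls and *Hand1* in mutants.

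*Mef2a* rose in control hearts from 55.5 ± 28.8 CPM (SD, n = 3) at E11.5 to 115 ± 20.2 at E12.5, with every E12.5 control above every E11.5 control. The log2 fold change was 1.05 (standard error 0.28, adjusted p = 0.0404), a fold of 2.07 with an interval from 1.35 to 3.18. *Mef2d* rose from 43.3 ± 10.8 to 67.5 ± 5.57 CPM, again with no overlap, by a log2 fold change of 0.64 (standard error 0.16, adjusted p = 0.0335), a fold of 1.56 with an interval from 1.23 to 1.98. These were the 2 members whose control groups did not overlap, as was the case for 37.4% of all genes. *Mef2c* had a log2 fold change of 0.02 (standard error 0.09, adjusted p = 0.922) between the same hearts.

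In mutant hearts *Mef2a* stood at 60.2 ± 31.5 CPM at E11.5 and 97.5 ± 14.5 at E12.5, which gave a log2 fold change of 0.69 (standard error 0.36, adjusted p = 0.626). *Mef2d* stood at 59.1 ± 16.4 and 63.6 ± 6.95 CPM, a log2 fold change of 0.10 (standard error 0.20, adjusted p = 0.885). Both pairs of groups overlapped. The change with stage was not shown to differ between the genotypes. That difference was -0.53 (standard error 0.28, adjusted p = 0.956) on the log2 scale for *Mef2d* and -0.35 (standard error 0.53, adjusted p = 0.956) for *Mef2a*.

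The calls of *Mef2a* and *Mef2d* rested on few libraries. Leaving out E11.5 control replicate 1, or E12.5 control replicate 1 or 2, ended both calls, with adjusted p between 0.0888 and 0.166. Without E11.5 control replicate 3, *Mef2a* had an adjusted p of 0.121 and *Mef2d* of 0.0821. In that setting *Hand1* was the 1 member called. Without E11.5 control replicate 2, the highest of its group in all 3 genes, *Mef2a* reached 1.55 (adjusted p = 0.000384), *Mef2d* 0.84 and *Myocd* 1.08 on the log2 scale, and 3 members were called. With embryo sex as a covariate neither gene was called. The E11.5 controls were all male and 2 of the 3 E12.5 controls were female. That fit therefore sets E12.5 control replicate 3 alone against the E11.5 controls, and cannot separate stage from that 1 library.

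*Hand1* went the other way, with lower levels at E12.5 in both genotypes. It stood at 38.4 ± 9.75 CPM in E11.5 controls and 26.2 ± 3.63 in E12.5 controls, with a log2 fold change of -0.55 (standard error 0.18, adjusted p = 0.0708). In mutants it stood at 52.5 ± 3.66 and 33.4 ± 4.52 CPM, with a log2 fold change of -0.66 (standard error 0.13, adjusted p = 0.0906) and every E12.5 mutant below every E11.5 mutant. It was the only member whose mutant groups did not overlap between the stages, as was the case for 17.4% of all genes. Neither difference was called, although DESeq2 called the one in mutants (adjusted p = 0.00234). Without E11.5 control replicate 3 the difference in controls was called, at a log2 fold change of -0.74 (adjusted p = 0.0331).

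*Myocd* stood at 49.3 ± 21.2 CPM in E11.5 controls and 79.8 ± 13.5 in E12.5 controls, a log2 fold change of 0.69 (standard error 0.24, adjusted p = 0.0827). In mutants the values were 58.2 ± 21.0 and 65.6 ± 5.18 CPM, a log2 fold change of 0.17 (standard error 0.24, adjusted p = 0.844). *Nkx2-5*, *Hand2*, *Mef2c* and *Srf* had log2 fold changes between 0.02 and 0.12 in controls and between -0.06 and -0.02 in mutants. For these 4 genes the intervals of the fold between stages lay within 0.756 and 1.33 in both genotypes in the fits without sex.

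**Figure D4:**
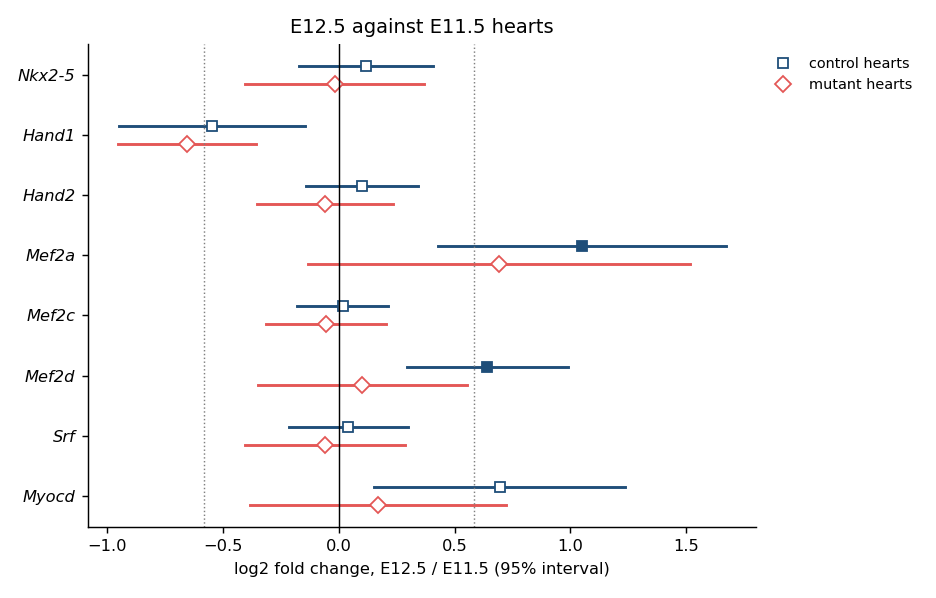
Log2 fold change of E12.5 over E11.5 hearts (horizontal axis) for the 8 genes in control (squares) and mutant hearts (diamonds), with 95% intervals, 0 as a solid line and 1.5-fold either way as dotted lines. Filled symbols mark called genes, which are *Mef2a* and *Mef2d* in controls, and *Hand1* lies below 0 in both genotypes.

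*Mef2a*, *Mef2d* and *Myocd* shared a pattern over the libraries that the groups do not describe. In E11.5 control replicates 1 and 3 and mutant replicate 3, *Mef2a* deviated by -0.97, -0.87 and -1.58 log2 units from its mean over the 12 libraries. *Myocd* deviated by -0.83, -0.57 and -0.82 units in the same libraries, and *Mef2d* by -0.51, -0.71 and -0.49 units. In each gene these were the 3 lowest libraries of the 12. These same 3 libraries were the ones in which longer transcripts were lower. The slope of log2 level on transcript length was -0.10, -0.15 and -0.26 per doubling of length in them and between 0.01 and 0.17 in the other 9, over 11714 genes. The highest slope, 0.17, was that of E12.5 control replicate 1, in which *Mef2a*, *Mef2d* and *Myocd* were at their highest of the 12 libraries.

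With each library's trend on annotated transcript length removed, neither *Mef2a* (log2 fold change 0.90, adjusted p = 0.0610) nor *Mef2d* (0.50, adjusted p = 0.0525) was called between the stages in controls. With the trend on the length implied by the deposited values removed, *Mef2d* was called (0.66, adjusted p = 0.0444) and *Mef2a* was not (1.04, adjusted p = 0.0644). The trend was noticed in these data before the alternative was set up. *Mef2c*, whose longest transcript has 6277 bases, shared the pattern less, with deviations of 0.03, 0.08 and -0.24 log2 units in the 3 libraries. The last was its lowest of the 12 libraries. In the same library, E11.5 mutant replicate 3, *Nkx2-5*, *Hand2* and *Srf* were at their highest of the 12, at 0.34, 0.25 and 0.30. In E11.5 control replicates 1 and 3 the deviations of these genes ran from -0.18 to 0.19. Why the libraries differ in slope was not tested.

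**Figure D5:**
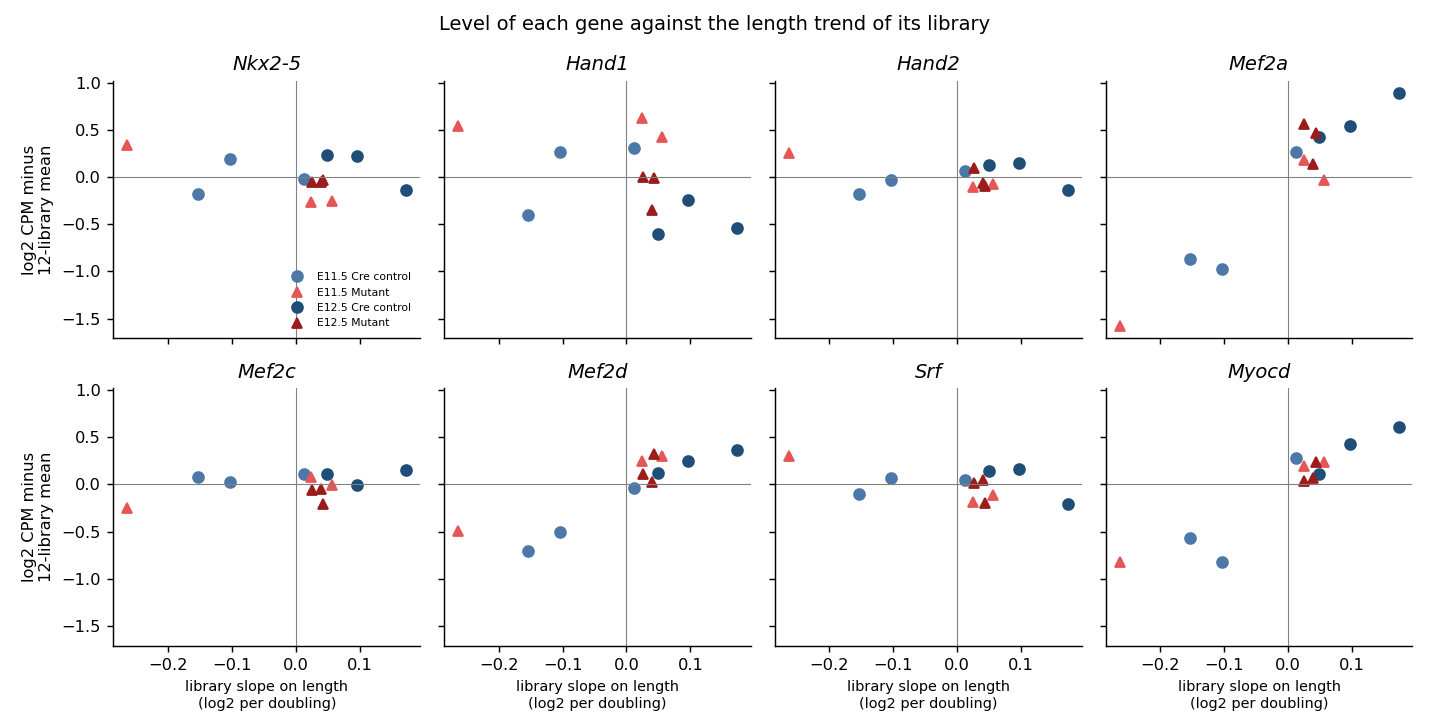
Deviation of log2 CPM from the mean over the 12 libraries (vertical axes) against the slope of each library on annotated transcript length (horizontal axes, log2 per doubling) for the 8 genes, with circles for control and triangles for mutant libraries. The 3 libraries with slopes of -0.10 to -0.26 hold the lowest values of *Mef2a*, *Mef2d* and *Myocd*.

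The makeup of the MEF2 family was described by shares. By RPKM, *Mef2a* gave 33.9 ± 8.04% of the summed level of the 3 *Mef2* genes in E11.5 controls and 46.6 ± 2.75% in E12.5 controls, with 32.2 ± 9.25% and 44.7 ± 3.22% in mutants. *Mef2c* gave 33.8 ± 7.25% and 21.2 ± 1.97% in controls and 28.1 ± 7.204% and 21.0 ± 2.80% in mutants. *Mef2d* gave 32.3 ± 2.25% and 32.2 ± 1.37% in controls and 39.7 ± 2.56% and 34.3 ± 2.55% in mutants. The shares use the lengths implied by the deposited values and were not tested.

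The likeness of profiles over the 12 libraries was measured as the root mean square difference of log2 CPM after centring each gene on its mean. Among the members, *Mef2d* and *Myocd* were each other's nearest, at 0.19 log2 units, and *Hand2* and *Srf* were each other's nearest, at 0.07. *Nkx2-5* was nearest to *Srf* (0.10), *Mef2a* to *Myocd* (0.33), *Mef2c* to *Hand2* (0.20) and *Hand1* to *Hand2* (0.41), the largest of these distances. Among the other 12269 genes the nearest were *Sipa1* for *Nkx2-5* (0.09), *Dlk2* for *Hand1* (0.18), *Ccdc97* for *Hand2* (0.05), *Zbtb38* for *Mef2a* (0.11), *Ypel2* for *Mef2c* (0.05), *Zfp609* for *Mef2d* (0.08), *Prr3* for *Srf* (0.07) and *Heg1* for *Myocd* (0.09). All libraries enter this measure, so shared depth and length trends enter it too.

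Partners and cofactors of these factors were described from a list of 28 genes, which includes GATA and T-box factors, histone deacetylases that bind MEF2, Id proteins and the myocardin-related factors. For the lists below, 10.2% of all genes had an unadjusted p under 0.05 between genotypes at E11.5, 21.4% at E12.5 and 19.4% over both stages. Between stages the share was 32.8% in controls and 9.27% in mutants. Of all genes, 0.115% were called between genotypes at E11.5, 2.95% at E12.5 and 3.22% over both stages. Between stages 5.28% were called in controls and 0.556% in mutants. Of 26 partners tested at E12.5, 1 was called between genotypes and it was higher in mutants. This was *Gata5*, a GATA factor of the endocardium and epicardium, at 42.0 ± 1.24 CPM (SD, n = 3) in controls and 63.9 ± 1.92 in mutants (log2 fold change 0.62, standard error 0.08, adjusted p = 0.00246). At E11.5 none of 27 was called, by the same test at which 5 had an unadjusted p under 0.05, where *Gata5* had a log2 fold change of 0.54 (standard error 0.15, adjusted p = 0.241) and *Nkx2-6* of -2.53 (standard error 0.77, adjusted p = 0.270). Over both stages *Gata5* (0.58, adjusted p = 0.00105) and the Id gene *Id2* (-0.33, adjusted p = 0.0261) were under the fold threshold. The median of the list was -0.02 at E11.5 and -0.01 at E12.5.

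Between stages in controls, 3 of 27 partners were called, all lower at E12.5, where 5.28% of all genes were called. *Isl1*, a factor of second heart field progenitors, fell by 1.16 on the log2 scale (standard error 0.22, adjusted p = 0.0191). *Nkx2-6*, an NKX factor of the pharynx and outflow region, fell by 2.22 (standard error 0.53, adjusted p = 0.0325) from a level of 1.26 ± 0.621 CPM. *Id1*, an inhibitor of basic helix-loop-helix factors, fell by 0.76 (standard error 0.11, adjusted p = 0.00904). In mutants 0 of 26 were called by edgeR, where 4 had an unadjusted p under 0.05, among them *Gata5* at -0.36 (adjusted p = 0.359) and *Id2* at -0.32 (adjusted p = 0.491).

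Of 13 listed targets of NKX2-5 and MEF2 factors, 0 were called between genotypes at E11.5, at E12.5 or over both stages, with 0, 3 and 1 at an unadjusted p under 0.05. The muscle creatine kinase gene *Ckm* had the lowest p at each stage, with log2 fold changes of -0.49 (standard error 0.27, adjusted p = 0.612) and -0.45 (standard error 0.14, adjusted p = 0.0837). The next were *Xirp1* at E11.5 (0.18, adjusted p = 0.841) and the sodium-calcium exchanger gene *Slc8a1* at E12.5 (-0.34, adjusted p = 0.216). Between stages in controls 3 were called higher and 1 lower, where 5.28% of all genes were called. *Ckm* rose from 18.4 ± 4.28 to 66.7 ± 2.78 CPM (log2 fold change 1.87, standard error 0.15, adjusted p = 0.000925), and the calsequestrin gene *Casq2* and the connexin gene *Gja5* rose by 0.95 (standard error 0.23) and 0.59 (standard error 0.12). *Nppb*, a natriuretic peptide gene, fell by 1.12 (standard error 0.18, adjusted p = 0.0121). In mutants *Ckm* alone was called, with a log2 fold change of 1.89 (standard error 0.25, adjusted p = 0.0199).

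Of 12 tested targets of SRF and myocardin, 1 was called between genotypes at E12.5 and it was higher in mutants. This was the skeletal actin gene *Acta1*, at 206 ± 66.5 CPM in controls and 369 ± 81.4 in mutants (log2 fold change 0.85, standard error 0.20, adjusted p = 0.0387). The median of the list was 0.05 at E11.5 and 0.30 at E12.5, where 6 had an unadjusted p under 0.05, against 21.4% of all genes. At E11.5 0 of 13 were called, with *Acta1* at 0.81 (adjusted p = 0.106) and the smooth muscle actin gene *Acta2* at 0.31 (adjusted p = 0.532), and 1 had an unadjusted p under 0.05. Over both stages *Acta1* was called (0.84, standard error 0.15, adjusted p = 0.00412). Between stages in controls 1 of 13 was called, *Tagln*, a smooth muscle gene of the embryonic heart, which fell by 1.18 (standard error 0.14, adjusted p = 0.00338). In mutants 0 of 12 were called and 5 had an unadjusted p under 0.05, with *Tagln* at -0.90 (adjusted p = 0.100) and *Egr1* at 1.08 (adjusted p = 0.117). The other skeletal muscle markers were low. *Myod1*, *Myf5* and *Pax7* were at 0 in all E11.5 controls and *Myf5* in all E12.5 controls. In E11.5 mutants their means were 0.0287, 0.0776 and 0.0788 CPM. At E12.5 *Myod1* stood at 0.0972 ± 0.116 CPM in controls and 0.616 ± 0.363 in mutants. *Pax7* had means of 0.0410 and 0.0802 there, and *Myf5* of 0.0654 in mutants. *Myf6* had means of 0.0651 CPM in controls and 0.0203 in mutants at E11.5, and 0.0850 and 0.108 at E12.5. *Myog* stood at 0.160 ± 0.165 CPM in controls and 0.175 ± 0.0855 in mutants at E11.5, and at 0.630 ± 0.067 and 1.46 ± 0.749 at E12.5. *Ckm* had negative fold changes at both stages, as given above. The summed level of the 7 markers, 267 to 370 CPM in controls and 495 to 573 in mutants at E11.5 and 224 to 351 and 350 to 498 at E12.5, was mostly *Acta1* itself.

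A further list came from the study, which names genes raised both in these mutants and in hearts with an *Nkx2-5* hypomorphic allele. Because it was chosen on these samples, its direction is no independent evidence. Of its 5 genes, 1 was called at E11.5 (*Abca4*) and 3 at E12.5 (*Tnni2*, *Slc9a3r1* and *Abca4*), all higher in mutants. *Tnni2*, the fast skeletal troponin I gene, stood at 56.5 ± 9.999 CPM in controls and 333 ± 30.7 in mutants at E12.5, with a log2 fold change of 2.57 (standard error 0.12, adjusted p = 4.6e-06).

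Markers of other cells moved with genotype and stage. None of 13 cardiomyocyte markers was called between genotypes at E11.5, at E12.5 or over both stages. Of them 0, 6 and 1 had an unadjusted p under 0.05, against 10.2%, 21.4% and 19.4% of all genes. *Ryr2* was called between stages in controls (0.76, standard error 0.18, adjusted p = 0.0308). Of 7 erythroid markers 5 were called lower in E12.5 mutants (*Slc4a1*, *Hbb-y*, *Hba-x*, *Hba-a1* and *Hbb-bh1*), and their summed level was 3817 to 6160 CPM in controls and 2070 to 2610 in mutants. Between the stages 5 of the 7 were called lower at E12.5 in mutants, with a median log2 fold change of -1.82. In controls 1 was called higher and 3 lower. Of all genes 2.95% were called between genotypes at E12.5, and 0.556% in mutants and 5.28% in controls between stages. Of 6 epicardial markers 0 were called between genotypes and 5 had an unadjusted p under 0.05 at E11.5, with a summed level of 501 to 771 CPM in controls and 312 to 467 in mutants. *Upk1b*, *Wt1* and *Upk3b* were called lower at E12.5 in controls. Of 7 endothelial markers 0 were called between genotypes at E11.5 and 3 had an unadjusted p under 0.05. Their summed level was 883 to 1111 CPM in controls and 1042 to 1538 in mutants there. At E12.5 it was 1175 to 1224 and 1113 to 1380 CPM. *Cdh5* was called higher at E12.5 in controls, while *Emcn* had a lower mean there (167 ± 37.7 CPM at E11.5 and 139 ± 9.64 at E12.5). Of 6 cushion markers *Postn* was called lower in E12.5 mutants. Neural crest and neuron markers summed to 2.24 to 7.24 CPM, and 1 of 4 passed the filter. The part of these cells in the members' values was not tested.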

How the data were processed

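RNA from embryonic hearts was sequenced by the authors on an Illumina instrument, and the processing notes of the submitters name Bowtie2 and DESeq and the build mm10. The gene models, the counter and its strand setting are not given in the sources used here. The deposited values named RPKM were found to be whole counts multiplied by a gene length and a library factor, and were treated as a signal. Deposited tables of comparisons give the mean count of each group (expected counts, as the authors averaged them), and the per-library counts of 17827 genes were recovered from both, each within 1.53e-05 of a whole number. Columns of the authors' own fold changes and p-values were not used.

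Counts were tested with edgeR 4.0.16 (quasi-likelihood test, TMM scaling, R 4.3.3) with Benjamini-Hochberg adjustment over all genes whose mean RPKM reached 0.5. A gene was called at an adjusted p up to 0.05 and a fold from 1.5. All adjusted p-values are from this test unless another tool is named. Each fit held the libraries of its comparison, and the interaction and the stage-adjusted effect used all 12. Levels are CPM on TMM-scaled library sizes, and RPKM computed from counts and lengths. Alternatives were DESeq2 1.42.0, limma 3.58.1 on log2(RPKM + 0.5), median-ratio scaling, other filters, no fold threshold, sex and the replicate number as covariates, and each library left out. Removal of length trends was added after seeing the data. The computations were tested on simulated data.

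The members and lists were chosen with earlier results of these data known. All 8 members are described. Of the other lists, every called gene up to 4 with the lowest p is named, otherwise the 2 with the lowest p, and likeness names the nearest gene and the nearest member. The calls over both stages in the list taken from the study are not reported here. Some genes were named for a second comparison after their values were seen. Coordinates are on GRCm38. Counting error is the lower limit of the error, since reads of 1 library share its preparation.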

Additional observations from a re-analysis of the deposited data

Results flagged for a closer look

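*Hba-a1*, an adult alpha-globin gene from the erythroid marker list, stood at 157 to 222 CPM in E11.5 controls and 225 to 250 in E11.5 mutants, and at 278 to 349 CPM in E12.5 controls and 163 to 226 in E12.5 mutants. All mutant hearts were higher at E11.5 and all were lower at E12.5, and the effect of genotype differed between the stages by -1.03 on the log2 scale. It was noticed because every sample moved one way at one stage and the opposite way at the other. By edgeR the difference between the stages did not pass the adjusted threshold. No level or ratio of the 8 transcription factors was picked out in this way.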

How the results depend on the processing

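No member was called between genotypes, over both stages or in the difference between stages under any of the alternatives run. The 2 members called between stages in controls became 1 with DESeq2, 0 with sex as a covariate, 1 with each library's length trend removed, 0 with the trend on annotated transcript length removed and 0 with all 12 libraries in one fit, and 0 to 3 with 1 library left out. With sex, the change in controls rested on E12.5 control replicate 3, the only male library of its group. DESeq2 called 1 member between stages in mutants, *Hand1*. *Myocd* was called in controls without a filter (adjusted p = 0.0414). Whether the replicate numbers pair the libraries was not settled. Deviations of libraries with the same number correlated at E11.5 at -0.0869, 0.505 and 0.345 for replicates 1, 2 and 3. The correlations ran between -0.0563 and 0.0409 at E12.5, -0.167 and 0.229 in controls and -0.0497 and 0.151 in mutants. With the replicate number as a block, 3 members were called between stages in controls, the third being *Myocd* (log2 fold change 0.75, adjusted p = 0.0275), *Hand1* over both stages was 0.42 (adjusted p = 0.0190) and *Nkx2-5* between stages in mutants was 0.0103. The block called 73 genes at E11.5, where 14 were called without it. Over the other alternatives, libraries left out excepted, all-gene call counts ran from 6 to 248 at E11.5, 132 to 613 at E12.5, 0 to 42 for the difference between stages, 120 to 840 over both stages, 19 to 1402 in controls and 29 to 227 in mutants. With 1 library left out they ran from 0 to 15 at E11.5 (0 without control replicate 1 or 3 or mutant replicate 1 or 2), 151 to 368 at E12.5 (151 without control replicate 1), 0 to 10 for the difference between stages, 307 to 412 over both stages, 44 (without E12.5 control replicate 1) to 1406 (without E11.5 control replicate 2) in controls and 1 (without E12.5 mutant replicate 2) to 123 in mutants. The shares of all genes called, given beside the members, rest on these counts. The removal of length trends was chosen after seeing the data.

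The log2 fold changes that changed sign were of genes not called in either direction, and the cause was not tested. With sex as a covariate at E11.5, the effect of genotype rested on mutant replicate 3, the only male mutant, since all controls were male. In that fit *Nkx2-5* was 0.36, *Mef2a* -1.17, *Mef2d* -0.0864 and *Myocd* -0.52. In the difference between stages with sex, *Mef2a* was 0.11 and *Mef2c* 0.0239. With sex, *Srf* over both stages was 0.0127 and *Nkx2-5* between stages in mutants 0.0102. With the length trend or the annotated trend removed, *Mef2c* was 0.0395 or 0.0330 in the difference between stages and -0.20 or -0.18 between stages in controls. Over both stages *Hand2* was -0.00457 or -0.00634 and *Myocd* 0.00224 or 0.00227 under the same removals. *Srf* between stages in controls was -0.0563 with the length trend removed. *Nkx2-5* between stages in mutants was 0.0795 or 0.0921 under the removals, 0.0435 with limma and 0.00445 with a mean RPKM of at least 5.

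With 1 library left out, values at E11.5 ran from -0.26 to 0.0856 for *Nkx2-5*, -0.0383 to 0.16 for *Hand2*, -0.18 to 0.64 for *Mef2a* and -0.15 to 0.12 for *Srf*. Over both stages they ran from -0.0517 to 0.0448 for *Hand2*, -0.20 to 0.14 for *Mef2a*, -0.11 to 0.0149 for *Srf* and -0.13 to 0.12 for *Myocd*. In the difference between stages they ran from -0.24 to 0.12 for *Nkx2-5*, -0.22 to 0.0903 for *Hand1* and -0.21 to 0.0892 for *Srf*. Between stages in controls they ran from -0.0160 to 0.0629 for *Mef2c* and -0.0190 to 0.15 for *Srf*. Between stages in mutants they ran from -0.13 to 0.22 for *Nkx2-5*, -0.13 to 0.0738 for *Hand2*, -0.13 to 0.00379 for *Mef2c*, -0.10 to 0.24 for *Mef2d*, -0.16 to 0.12 for *Srf* and -0.0921 to 0.34 for *Myocd*. The lowest count of a member was 283, for *Mef2a* in mutant replicate 3 at E11.5, the shallowest library. At E11.5 the intervals were widest for *Mef2a*, *Myocd* and *Mef2d*, and the parts of depth and spread in this were not tested.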
